A study of Mus musculus with 16 samples.

Results

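Cyp17a1, Cux2, Prlr and Lifr are genes that the liver expresses at a higher level when growth hormone is present continuously than when it arrives in pulses. The array annotation names 16593 genes. The 4 genes were followed through every probe annotated with 1 of the 4, which gave 7 of 25697 probes. Cyp17a1 had 1 probe, Cux2 had 3 and Lifr had 3. No probe was annotated as Prlr in the tables used, so Prlr was not analysed here and 3 of the 4 genes were measured.

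Livers came from 16 male C57BL/6 mice, 4 biological replicates in each group, and their RNA was hybridised to 1-colour Illumina bead arrays. The garlic oil mice ate the Lieber-DeCarli ethanol diet, a liquid diet that produces alcoholic fatty liver, and received 50 mg/kg garlic oil in 0.1 ml olive oil by daily gavage for 4 weeks. The DADS mice ate the same ethanol diet and received 15 mg/kg diallyl disulfide (DADS), a sulfur compound of garlic oil, in the same volume of olive oil. The alcohol mice ate the ethanol diet and received olive oil alone. The control mice were pair-fed the liquid control diet without ethanol and also received olive oil. The labels name no growth hormone treatment and no female mouse, so the response of these genes to the hormone itself was not measured.

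In male rodents growth hormone is released in pulses, and in females its level is more even. Hepatocytes read the pattern through the growth hormone receptor, the kinase JAK2 and the transcription factor STAT5B, and many liver genes differ between the sexes for that reason. Cyp17a1 is the cytochrome P450 that hydroxylates pregnenolone and progesterone on the way to androgens. Cux2 is a homeodomain transcription factor of female mouse liver that represses male-biased genes. Prlr is the prolactin receptor, and Lifr is the receptor of leukaemia inhibitory factor, which signals together with Il6st.

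The reference promoters (250 bases before to 50 after a transcription start) were looked up for the members because STAT5 proteins bind the palindrome TTCNNNGAA. The RefSeq table held 2 such windows for Cux2, 3 for Prlr, 2 for Lifr and none for Cyp17a1. Both Cux2 windows are shown because the brightest Cux2 probe was detected in some groups and not in others. They are given on GRCm38.p6, minus strand, 5′ to 3′, in lower case throughout since neither held the motif on either strand.
Cux2 start 1, chr5:122049802-122050101: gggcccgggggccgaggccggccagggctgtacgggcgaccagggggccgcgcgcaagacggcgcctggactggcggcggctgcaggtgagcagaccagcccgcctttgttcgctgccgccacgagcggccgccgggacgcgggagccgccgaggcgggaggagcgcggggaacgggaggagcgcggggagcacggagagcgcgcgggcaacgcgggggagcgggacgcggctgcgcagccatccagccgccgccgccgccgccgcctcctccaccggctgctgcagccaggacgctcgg
Cux2 start 2, chr5:122047776-122048075: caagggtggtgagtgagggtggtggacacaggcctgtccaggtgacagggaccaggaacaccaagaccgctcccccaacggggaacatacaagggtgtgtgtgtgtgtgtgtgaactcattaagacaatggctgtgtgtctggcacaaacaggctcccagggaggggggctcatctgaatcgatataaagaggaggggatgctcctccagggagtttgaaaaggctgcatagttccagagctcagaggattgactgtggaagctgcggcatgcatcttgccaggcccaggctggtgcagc
The first window held 80.3% G and C and the second 56.7%. The motif was found in 1 of the Prlr windows and in neither Lifr window. Of 32851 promoter windows of the same length in the table, 2726 (8.3%) held it.

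All 16 arrays read as liver: the 9 annotated hepatocyte markers were detected on every array, among them Alb at raw signals of 1950.9 to 3236.1. Raw signal is the mean bead intensity in arbitrary units, and a probe was taken as detected where its deposited detection p was under 0.05. Arrays detected 10631 to 11526 probes each. The garlic oil and DADS arrays lay on 1 chip and the alcohol and control arrays on another. Chip and group therefore cannot be told apart when a garlic oil or DADS mouse is set against an alcohol or control mouse. Within each chip the groups held separate positions, so position and group cannot be told apart either. One alcohol array, replicate 1, carried pancreatic acinar genes at a summed raw signal of 693318.2, against 2127.2 to 3304.8 on the garlic oil, DADS and control arrays together and 2175.6 to 3055.4 on the other alcohol arrays.

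Cyp17a1 was high in both treated groups. Its probe (ILMN_2874352) was detected on 16 of 16 arrays and ranked above 90.2% of all probes by mean level. Raw signals were 2492.4, 3539.6, 4908.7 and 1893.9 in garlic oil mice and 1717.5, 6327.7, 3715.9 and 1498.1 in DADS mice. They were 518.2, 360.1, 293 and 1063.5 in alcohol mice, against 381.2, 791.3, 571.2 and 767 in control mice. Every treated mouse was above every alcohol and control mouse. Levels this free of overlap and higher were found for 3.15% of all genes in garlic oil and 4.65% in DADS against alcohol livers, and for 10.6% and 11.8% against control. The closest pair of mice was DADS replicate 4 and alcohol replicate 4. Within the DADS group the mice fell apart into a pair at 3715.9 or more and a pair at 1717.5 or less.

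After background correction and quantile normalization the log2 level of Cyp17a1 averaged 11.49 ± 0.51 in garlic oil, 11.25 ± 0.92 in DADS, 8.74 ± 0.91 in alcohol and 9.21 ± 0.48 in control livers (SD, n = 4 each). Cyp17a1 rose 6.69-fold in garlic oil against alcohol livers, a log2 change of 2.74 with a 95% interval of 1.81 to 3.67 (limma adjusted p = 0.00643 over 8386 genes). It rose 5.69-fold in DADS against alcohol livers, a log2 change of 2.51 with an interval of 1.58 to 3.44 (limma adjusted p = 0.0071). Among all genes it had the largest rise with garlic oil over alcohol and stood in place 3 for DADS over alcohol. Against control the rises were 4.83-fold with garlic oil (limma adjusted p = 0.00224) and 4.11-fold with DADS (limma adjusted p = 0.00537). For each of these 4 comparisons the exact two-sided permutation p was 0.0286, the smallest that 4 mice against 4 can give. The 4 comparisons share arrays and are not independent of each other.

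Neither within-chip comparison of Cyp17a1 passed the test. The difference between garlic oil and DADS livers was 0.23 on the log2 scale with a 95% interval of -0.69 to 1.16 (limma adjusted p = 0.842). The difference between alcohol and control livers was -0.47 with an interval of -1.40 to 0.46 (limma adjusted p = 0.618), and the groups overlapped. By mean level the order was garlic oil, DADS, control and alcohol, and only the step between DADS and control exceeded the spread between mice. Without the acinar-rich alcohol array the log2 change was 2.78 for garlic oil (limma adjusted p = 0.0155) and 2.54 for DADS against alcohol (limma adjusted p = 0.0191).

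**Figure D1:**
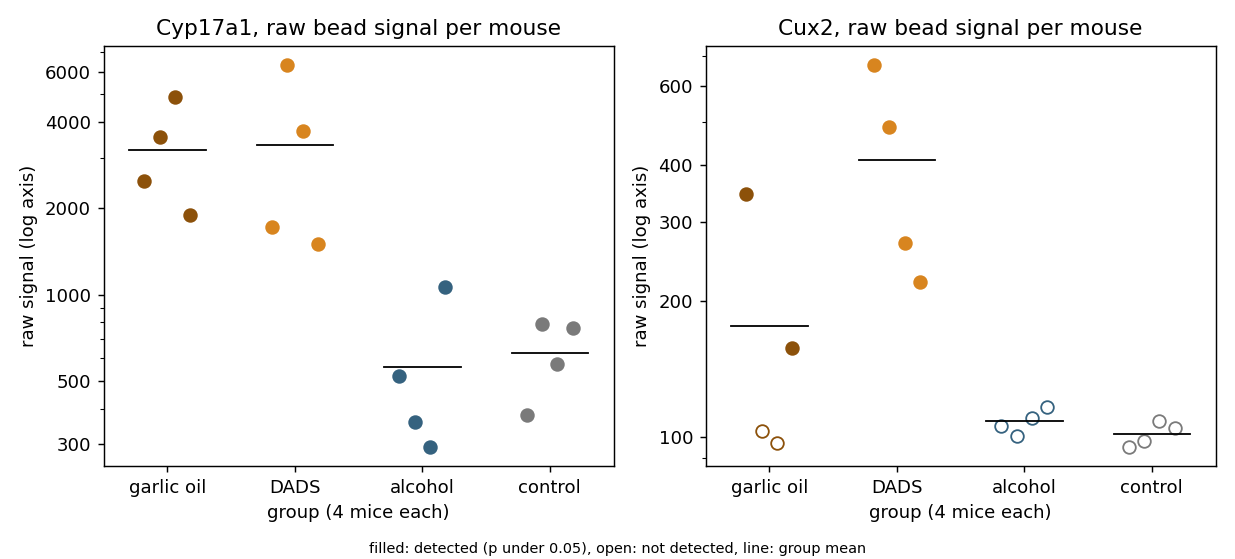
Raw bead signal of Cyp17a1 (left) and of the Cux2 probe ILMN_1234471 (right) per mouse on log axes, with 4 mice in each group. Filled points are detected, open points are not, and lines are group means. All 8 treated mice lie above the alcohol and control mice for Cyp17a1, while this Cux2 probe is detected in 4 DADS mice, 2 garlic oil mice and no alcohol or control mouse.

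On its brightest probe (ILMN_1234471), Cux2 was detected in every DADS liver, in some garlic oil livers and in no alcohol or control liver. Raw signals were 345.2, 103.1, 97 and 157.7 in garlic oil mice and 668, 486.9, 269.7 and 220.9 in DADS mice. They were 105.5, 100.5, 110.3 and 116.7 in alcohol mice, against 94.8, 97.7, 108.7 and 104.5 in control mice. The 4 DADS mice and garlic oil replicates 1 and 4 were detected. The other 2 garlic oil mice lay within the range of the alcohol and control mice, none of which was detected.

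The normalised log2 level of Cux2 averaged 6.27 ± 1.37 in garlic oil, 8.05 ± 0.79 in DADS, 5.30 ± 0.16 in alcohol and 5.20 ± 0.12 in control livers (SD, n = 4 each). The lowest level of any detected probe lay between 5.54 and 5.77 on the 16 arrays, so the alcohol and control levels are only upper bounds and folds against them are lower bounds. Cux2 was at least 5.25-fold higher in DADS than in alcohol livers, with a fitted log2 change of 2.75 and an interval of 1.75 to 3.75 (limma adjusted p = 0.00703). It was at least 4.99-fold higher in DADS than in control livers (limma adjusted p = 0.000894). DADS mice overlapped with neither group, and the exact two-sided permutation p was 0.0286 in each comparison.

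With garlic oil the Cux2 change did not pass: the fitted log2 change was 0.97 against alcohol (interval -0.04 to 1.97, limma adjusted p = 0.285) and 1.07 against control (interval 0.07 to 2.08, limma adjusted p = 0.127). Garlic oil mice themselves ranged from undetected to 345.2, and without garlic oil replicate 3 the difference from control passed at 1.47 (limma adjusted p = 0.041). Without garlic oil replicate 1, the brightest, the change against alcohol was 0.39 (limma adjusted p = 0.605) and against control 0.50 (limma adjusted p = 0.387).

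The direct comparison of the treatments gave a log2 difference of -1.78 for garlic oil minus DADS, with an interval of -2.78 to -0.78. The probe was detected on 2 of 4 garlic oil arrays, and with the undetected ones set to the detection limit DADS livers were at least 2.95-fold higher. The difference did not pass over all genes (limma adjusted p = 0.0651, exact two-sided permutation p = 0.0857). It passed in 5 of 28 other settings, among them the fit with the replicate number as a block (limma adjusted p = 0.0495) and the one without garlic oil replicate 1 (log2 difference -2.35, limma adjusted p = 0.00522). On ILMN_1234471 alcohol and control livers were both below detection and differed by 0.11 on the log2 scale (limma adjusted p = 0.935). Without the acinar-rich array the DADS change against alcohol was 2.71 (limma adjusted p = 0.0197).

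The other Cux2 probes did not show this pattern. ILMN_1248236 was detected on 5 of 16 arrays: 1 garlic oil, 1 DADS, 2 alcohol and 1 control array. It had raw signals of 94.6 to 117.8 in garlic oil, 99.3 to 138.6 in DADS, 110.1 to 136.3 in alcohol and 115.1 to 129.5 in control mice. Its difference between DADS and alcohol was -0.10 on the log2 scale, with an interval of -0.44 to 0.24 and an adjusted p of 0.796 in the limma fit over all 11938 passing probes. ILMN_2971011 was detected on 1 array, DADS replicate 1 at 117.9, and was not tested. That array is also the brightest for ILMN_1234471. The result on Cux2 therefore rests on 1 of 3 probes. That probe passed the detection filter through 4 DADS and 2 garlic oil arrays alone, and it was chosen for its highest mean over all arrays. In alcohol and control livers ILMN_1248236 was the brighter, with mean log2 levels of 5.63 and 5.74 against 5.30 and 5.20. The choice of probe thus depends on the groups where it is high. With the mean of the 2 passing Cux2 probes the DADS change was 1.32 against alcohol (limma adjusted p = 0.015) and 1.32 against control (limma adjusted p = 0.0026). Without background correction, after quantile normalization, it was 1.68 and 1.75 (limma adjusted p = 0.00974 and 0.00148). Which transcripts each probe reads was not tested.

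**Figure D2:**
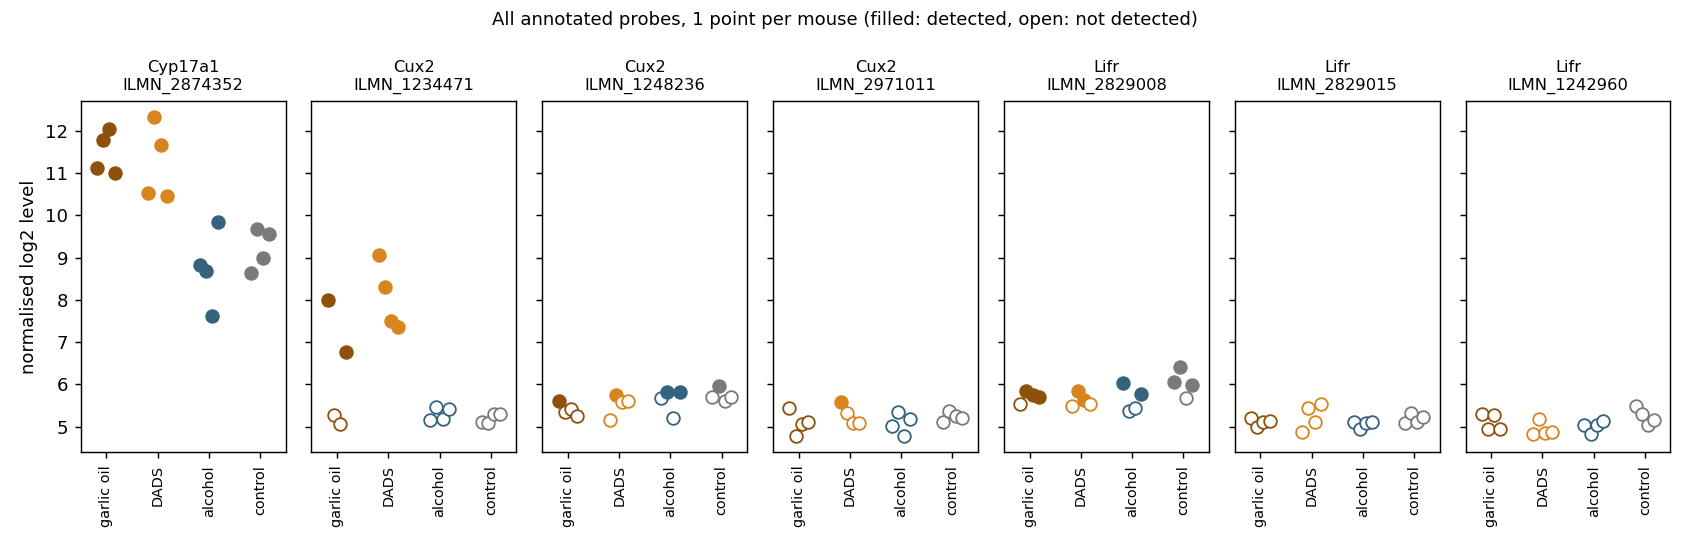
Normalised log2 level of all 7 probes, 1 point per mouse, with groups along each horizontal axis and detected values filled. The Cyp17a1 probe separates garlic oil and DADS mice from alcohol and control mice. The Cux2 probe ILMN_1234471 separates DADS mice, but not garlic oil mice, from alcohol and control mice. The other 5 probes, with raw signals up to 149.6, lie close together in all groups.

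Lifr stayed close to background in every group. Its brightest probe (ILMN_2829008) was detected on 10 of 16 arrays. Raw signals were 114.8, 122.4, 129.1 and 109.9 in garlic oil mice and 113.3, 143.3, 119.1 and 108.7 in DADS mice. They were 144.4, 97.9, 122.6 and 133.3 in alcohol mice, against 126.8, 149.6, 124.7 and 130.1 in control mice. All groups overlapped, and detection varied within each group: 3 garlic oil, 2 DADS, 2 alcohol and 3 control mice.

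Lifr passed the limma test in none of the 6 comparisons, and in 2 of them its unadjusted p was under 0.05. The log2 difference was 0.06 for garlic oil against alcohol (interval -0.29 to 0.40, limma adjusted p = 0.885) and -0.03 for DADS against alcohol (interval -0.37 to 0.32, limma adjusted p = 0.960). Against control the values were all negative: -0.33 for garlic oil, -0.42 for DADS and -0.39 for alcohol, with limma adjusted p-values of 0.170, 0.0933 and 0.212. The DADS value passed only when control replicate 3 was left out (-0.53, limma adjusted p = 0.0492). The remaining Lifr probes, ILMN_2829015 and ILMN_1242960, were detected on 0 of 16 arrays with raw signals up to 121.9 and 108.3, and were not tested. A change of Lifr inside these intervals was not detectable at this signal over background.

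**Figure D3:**
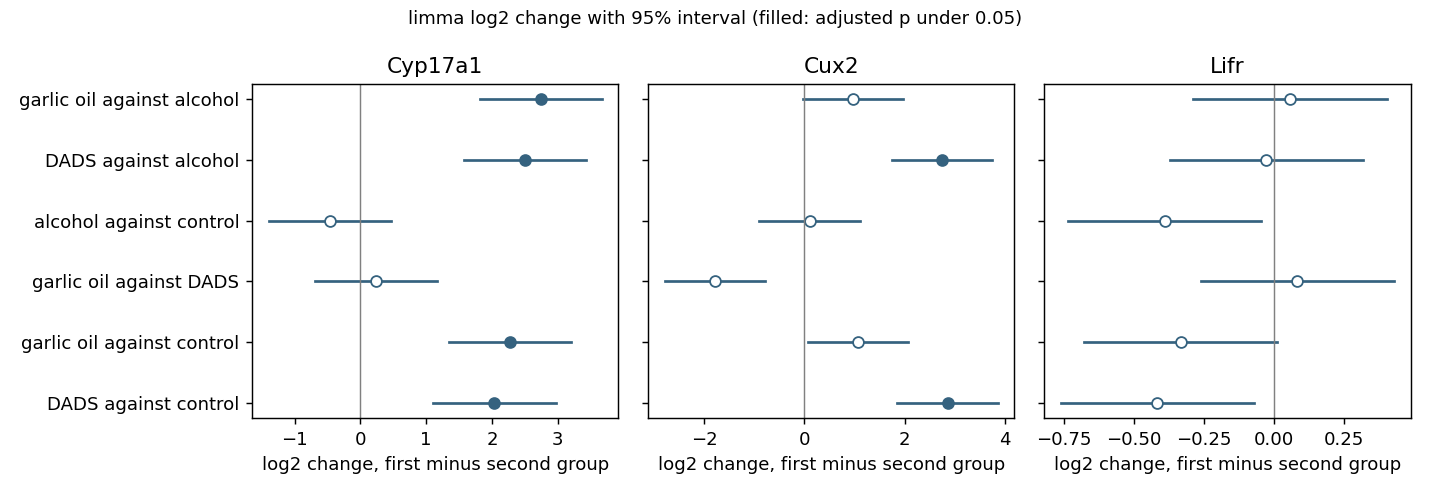
Log2 change with its 95% interval for Cyp17a1, Cux2 and Lifr in 6 comparisons, each panel with its own horizontal scale and filled points for adjusted p under 0.05. Cyp17a1 is filled in the 4 comparisons of a treated group with alcohol or control, Cux2 in the 2 comparisons of DADS with them, and Lifr in none.

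Of the 3 measured genes, 1 passed for garlic oil against alcohol, where 2.02% of 8386 genes passed, and 2 passed for DADS against alcohol, where 2.84% did. In the limma fit none passed for alcohol against control (3.58% of genes) or for garlic oil against DADS (1.85%), and 1 gene in each had an unadjusted p under 0.05: Lifr in the first and Cux2 in the second. Against control, 1 passed with garlic oil (17.9% of genes) and 2 with DADS (15.9%). All passing changes were rises, and rises were 0.692% and 1.23% of all genes for garlic oil and DADS against alcohol and 8.56% and 8.48% against control. With 3 genes the counts describe these genes and no more.

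Within the treated groups, the mice with the most Cyp17a1 were not those with the most Cux2. The DADS mouse with the highest Cux2, replicate 1 at 668, had a Cyp17a1 signal of 1717.5, while the DADS mouse with the highest Cyp17a1, replicate 2 at 6327.7, had a Cux2 signal of 486.9. Garlic oil replicates 2 and 3 had the highest Cyp17a1 of their group, at 3539.6 and 4908.7, and were the mice without detected Cux2. Garlic oil replicates 1 and 4, with Cux2 at 345.2 and 157.7, had the lower Cyp17a1 signals of 2492.4 and 1893.9.

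**Figure D4:**
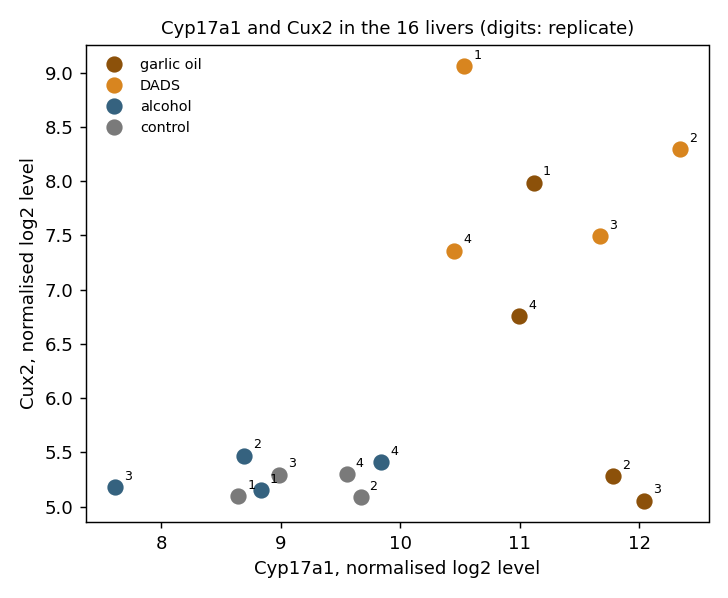
Normalised log2 level of Cyp17a1 (horizontal) and of Cux2 (vertical) in each of 16 livers, coloured by group and labelled by replicate number. Alcohol and control livers lie low on both axes, DADS livers high on both, and garlic oil replicates 2 and 3 high for Cyp17a1 with Cux2 at the alcohol and control level.

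Macrophage markers were lower in DADS livers. Of 8 measured Kupffer cell and macrophage markers, 7 fell in DADS against alcohol livers (1.61% of all genes fell) and 7 against control (7.44%), and none passed in garlic oil against alcohol (1 had an unadjusted limma p under 0.05). In garlic oil against DADS livers, which shared a chip, 4 of the 8 passed as higher (0.739% of all genes were higher). The median log2 difference of the 8 markers there was 0.955. The summed raw signal of the markers was 8851.9 to 10248.8 in garlic oil, 3362 to 8596.8 in DADS, 6495.7 to 10873.7 in alcohol and 7691.4 to 8801.5 in control mice. Within the DADS group the sums were 8596.8, 6792.2, 5532.7 and 3362 for replicates 1 to 4, the same ranking of the mice as for Cux2. By the median log2 level of the 9 annotated markers, 9.66, 9.08, 9.19 and 8.53, replicates 2 and 3 changed places. DADS replicate 1, with the highest Cux2, lay inside the control range of the sums but below that of the medians, 9.75 to 10.28. Garlic oil replicates 1 and 4, with detected Cux2, had the highest marker sums of their group, 10088.7 and 10248.8. The part of these markers in the Cux2 result was not tested. In whole liver, fewer cells of a type and less RNA per cell cannot be told apart.

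Genes on the same side of the sex difference were read from a list of other female-biased liver genes. Of the 29 listed, 17 were annotated and 5 were measured. The rest of the annotated genes were not tested. A1bg, Atp6v0d2, Cyp3a16, Cyp3a41a, Cyp3a44, Fmo2, Hao2, Ntrk2, Sult1e1, Sult2a6 and Sult3a1 were detected on 0 of 16 arrays, with raw signals up to 114.7. Cyp2c40 was detected on 3 arrays. Of the 5 measured genes, Cyp2c39 passed the detection filter through 4 DADS, 2 garlic oil and 1 alcohol array. Cyp2b13 passed it through garlic oil, DADS and alcohol arrays alone. The counts and medians of this list thus depend in part on the groups where its genes were high. In garlic oil against alcohol livers 1 of the 5 rose (0.692% of all genes rose), with a median log2 change of 0.63 over the list and -0.03 over all genes. In DADS against alcohol livers 4 of the 5 rose (1.23% of all genes), with a median of 1.63 against 0.02. They were Acot3, an acyl-CoA thioesterase (log2 change 2.88 ± 0.60 SE), Cyp2b9 (1.91 ± 0.33), Cyp2c39 (1.10 ± 0.20) and Cyp4a14, a fatty acid hydroxylase (0.96 ± 0.22), with limma adjusted p-values of 0.0187, 0.00703, 0.00787 and 0.0263. Cyp2c39 was dim, with raw signals of 80 to 201.9 over all arrays. It was detected on 1 alcohol and 0 control arrays, so its fitted changes against those groups depend on signals at background. Acot3 no longer passed in 2 of 29 other settings, with limma adjusted p up to 0.0571 (without alcohol replicate 3). Cyp4a14 no longer passed in 4 of 29, with adjusted p up to 0.111, among them without DADS replicate 1 (0.0542) or 3 (0.0587). Against control 3 of the 5 rose with garlic oil (8.56% of all genes) and 3 with DADS (8.48%). Acot3 and Cyp4a14 were not among them, at 0.91 and 0.41 in DADS against control livers (limma adjusted p = 0.326 and 0.204). In alcohol against control livers they were at -1.97 and -0.55 (limma adjusted p = 0.0841 and 0.180).

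Cyp2b9 and Cyp2b13 also rose with alcohol alone, where Cyp17a1 and Cux2 did not pass. Cyp2b9 had raw signals of 4645.8 to 8283.9 in garlic oil and 3973.9 to 12205.9 in DADS mice, and 1287.5 to 3367.4 in alcohol mice against 113.2 to 165.7 in control mice. In alcohol against control livers 2 of the 5 female-biased genes rose (1.94% of all genes), Cyp2b9 by 4.92 ± 0.33 and Cyp2b13 by 4.72 ± 0.44 on the log2 scale (SE; limma adjusted p = 2.23e-07 and 1.35e-05). In control mice Cyp2b9 was detected on 2 of 4 arrays and Cyp2b13 on none, so these fitted changes depend on signals at background. With undetected control arrays set to the detection limit, alcohol livers were at least 28.9-fold higher for Cyp2b9 and at least 14.3-fold higher for Cyp2b13. Probes of Cyp2b genes may not separate members of that family. With garlic oil, Cyp2b9 rose a further 1.42 ± 0.33 over alcohol (limma adjusted p = 0.0401), a call that was lost in 10 of 28 other settings, with adjusted p up to 0.108. No measured gene of this list fell in any of the 6 limma comparisons. At an unadjusted p under 0.05, 2 were lower in alcohol against control, 3 in garlic oil against DADS and 1 in garlic oil against control.

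Male-biased liver genes, those that pulsatile growth hormone favours, were lower on balance. Of 22 measured genes, 2 fell in garlic oil against alcohol (1.32% of all genes) and 11 fell in DADS against alcohol livers (1.61%), with list medians of -0.55 and -0.98 on the log2 scale. The 2 genes that fell with garlic oil were C6, a complement component, and Gstp1, a glutathione S-transferase, and each call was lost in 17 of 29 other settings. Without 1 array the count for garlic oil was 0 to 6, with 6 reached without alcohol replicate 4. In alcohol against control livers 5 fell (1.63% of all genes; median -0.73). Against control 15 fell with garlic oil (9.29% of all genes) and 19 with DADS (7.44%). Between the treatments Mup21, a major urinary protein, was the 1 gene of the list to pass (0.739% of all genes were higher), at 1.81 ± 0.30 above DADS in garlic oil livers on the log2 scale (SE; limma adjusted p = 0.00593). Probes of Mup and Cyp4a genes may not separate members of those families.

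Mup21 had raw signals of 2865.1, 2931.2, 3712.4 and 3620.5 in garlic oil mice and 701.5, 1169.6, 894.5 and 1863.1 in DADS mice. It had 5056.1, 5346.1, 6653.9 and 3029.6 in alcohol mice, against 17599.9, 14513.3, 17884.2 and 12690.9 in control mice. Its log2 change was -2.52 in DADS against alcohol livers (limma adjusted p = 0.00114) and -1.72 in alcohol against control livers (limma adjusted p = 0.00392). Cyp17a1 and Cux2 passed in the first of these comparisons and not in the second, a difference that was not tested. Elovl3, a fatty acid elongase, had raw signals of 151.6 to 342.5 in garlic oil, 94.1 to 145.7 in DADS, 211.3 to 767.5 in alcohol and 932.1 to 1423.9 in control mice. Elovl3 fell by 3.19 on the log2 scale in DADS against alcohol livers (limma adjusted p = 0.00397) and was detected on 2 of 4 DADS arrays. With the undetected DADS arrays set to the detection limit, Elovl3 was at least 7.52-fold lower in DADS than in alcohol livers. Alcohol replicate 4, the alcohol mouse with the most Cyp17a1 (1063.5), had the least Mup21 and Elovl3 of its group, at 3029.6 and 211.3. It also had the least Hsd3b5, a male-biased steroid dehydrogenase, at 147.2 against 3495.8 to 5146.9 in the other alcohol mice. The treated groups did not share this order for Mup21. Garlic oil replicate 3 had the most Cyp17a1 (4908.7) and the most Mup21 (3712.4) of its group. DADS replicate 2, with the most Cyp17a1 (6327.7), had Mup21 at 1169.6, within the range of the other DADS mice. How these genes run together was not tested.

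**Figure D5:**
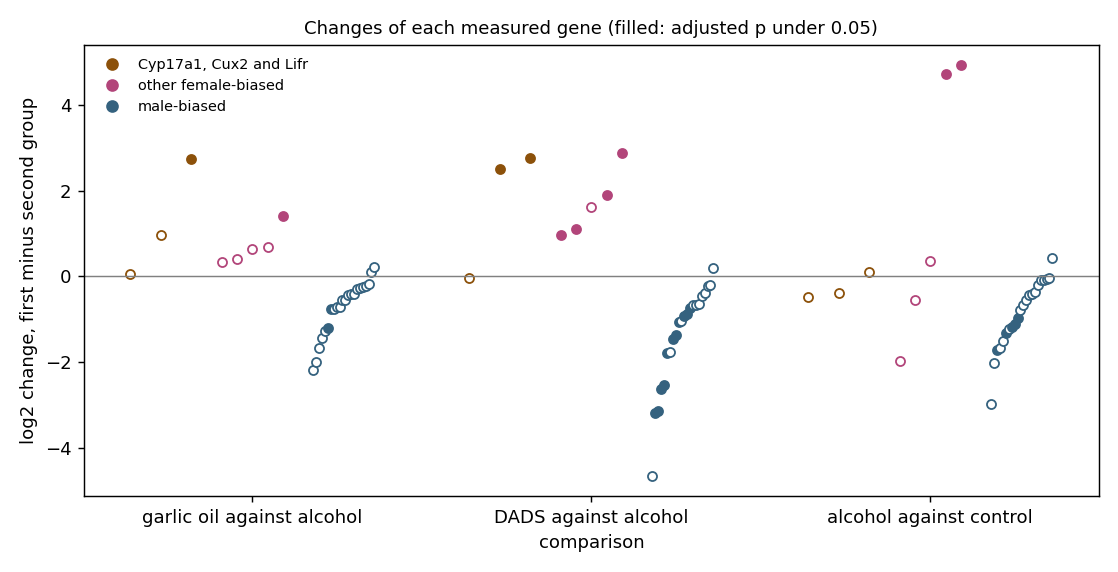
Log2 change of each measured gene in 3 comparisons, for Cyp17a1, Cux2 and Lifr, the 5 other female-biased and the 22 male-biased genes, with filled points for adjusted p under 0.05 and genes sorted by change within each list. In DADS against alcohol livers 2, 4 and 11 genes are filled, the first 6 of them above 0 and the male-biased ones below.

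Of 12 measured genes that carry the growth hormone and prolactin signal, none passed the limma test for garlic oil against alcohol (3 had an unadjusted p under 0.05). For DADS against alcohol 1 rose (1.23% of all genes): Socs2, the feedback inhibitor that growth hormone induces. Socs2 had raw signals of 1395, 201.3, 332 and 396.7 in garlic oil mice and 2449.7, 2026.5, 861.8 and 947.4 in DADS mice. It had 203.8, 300.3, 441.5 and 433.2 in alcohol mice, against 1158.6, 679.3, 2815.3 and 2193.1 in control mice. The highest Socs2 among garlic oil and among DADS mice was in replicate 1 of each, which also had the highest Cux2 of its group.

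Socs2 fell in alcohol against control livers (log2 change -2.59, limma adjusted p = 0.0163) and in garlic oil against control livers (-2.15, limma adjusted p = 0.0158). It was 2.22 ± 0.57 higher in DADS than in alcohol livers (SE; limma adjusted p = 0.0453), a call lost in 16 of 29 other settings with adjusted p up to 0.112. Without the acinar-rich alcohol array its values were 1.86 for DADS against alcohol (limma adjusted p = 0.112) and -2.23 for alcohol against control (limma adjusted p = 0.0518). The alcohol against control call was also lost without control replicate 3 (limma adjusted p = 0.0567) or 4 (0.0502), and that of garlic oil against control without control replicate 3 (0.0534).

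The growth hormone receptor gene Ghr passed in none of the 6 limma comparisons, with log2 changes from -0.56 to 0.15, nor did Cish (-0.80 to 0.11), an inhibitor that STAT5 induces, or Bcl6 (-1.67 to 0.23), a male-biased repressor. Their unadjusted p was under 0.05 in 2, 0 and 3 comparisons. Against control, 5 of the 12 fell with garlic oil (9.29% of all genes) and 2 with DADS (7.44%). Without 1 array these counts were 2 to 6 and 1 to 3. The count for garlic oil was 3 without garlic oil replicate 4 or control replicate 2 and 2 without control replicate 3, and that for DADS was 1 without DADS replicate 3 or control replicate 3. Igfals, the acid-labile subunit that carries circulating IGF1, fell with garlic oil (log2 change -1.30, limma adjusted p = 0.000796) and with DADS (-0.81, limma adjusted p = 0.0171). Igfbp3, its binding partner, fell as well (-0.90 with garlic oil and -1.20 with DADS, limma adjusted p = 0.022 and 0.00495). The DADS call of Igfals was lost without DADS replicate 3 (limma adjusted p = 0.0596) or control replicate 3 (0.057). The garlic oil call of Igfbp3 was lost without garlic oil replicate 4 (limma adjusted p = 0.0769) or control replicate 2 (0.0573) or 3 (0.0668). Stat5b and Onecut1 were detected on 0 of 16 arrays and were not tested. Tox, Trim24 and Por had no annotated probe.

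Around Lifr, the coreceptor Il6st passed in 1 of 6 comparisons, DADS against control (log2 change 0.49, limma adjusted p = 0.0486), and that call was lost in 15 of 29 other settings with adjusted p up to 0.141. The related receptor Osmr passed in 1, garlic oil against control (0.59, limma adjusted p = 0.0471), lost in 17 of 28 with adjusted p up to 0.130. The transcription factor Stat3 passed in none (-0.27 to 0.06). Of 10 measured genes of LIF and IL-6 family signalling, 1 fell in garlic oil against alcohol livers (1.32% of all genes) and none passed in DADS against alcohol (1 had an unadjusted limma p under 0.05). The one that fell was the kinase gene Tyk2 (-0.52, limma adjusted p = 0.0407), lost in 17 of 29 other settings with adjusted p up to 0.277. The ligand genes Lif, Cntf, Il6 and Il11 were detected on 0 of 16 arrays.

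Around Cyp17a1, several genes of steroid synthesis were not detected: Star, Cyp11a1, Cyp11b1, Cyp21a1 and Hsd3b1 were each detected on 0 of 16 arrays, with raw signals of at most 124.2. Hsd3b2, a 3-beta-hydroxysteroid dehydrogenase gene, was detected on 16 of 16 arrays at 653.3 to 2147.7. Hsd3b2 was higher with garlic oil than in control livers by 0.88 ± 0.17 on the log2 scale (SE; limma adjusted p = 0.00216), and the change was 0.09 (limma adjusted p = 0.840) as the mean of its passing probes. Probes of Hsd3b genes may not separate members of that family. Cyb5a, the cytochrome b5 that aids the lyase step of Cyp17a1, was detected on all arrays at 10515.3 to 18362.9 and passed in none of the 6 comparisons (-0.16 to 0.18 on the log2 scale). Among 13 measured steroid-metabolising genes 1 rose in each treatment against alcohol (0.692% of all genes with garlic oil and 1.23% with DADS), and it was Akr1d1, the steroid reductase of bile acid synthesis. Its log2 change was 1.11 ± 0.17 with garlic oil (SE; limma adjusted p = 0.00494) and 0.68 ± 0.17 with DADS (limma adjusted p = 0.043), the second lost in 15 of 28 other settings with adjusted p up to 0.104. Akr1d1 was dim, with raw signals of 149.3 to 193 in garlic oil, 135.8 to 169.6 in DADS, 95.9 to 136.4 in alcohol and 89.7 to 125.7 in control mice.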

How the data were processed

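Liver RNA of 16 mice was read on 1-colour Illumina arrays. Per the file headers, each deposited array file pairs a linear, unnormalized bead intensity with a detection p-value for 25697 probes. The deposited series table holds intensity that the authors normalized by a method not given in the sources used here. This table served as an alternative. The submitters' processing notes name GenomeStudio, lumi and limma, with no version. Signals were corrected and quantile-normalized with limma 3.58.1 in R 4.3.3 (neqc, offset 16). The filter kept 11938 probes detected (p under 0.05) on 4 or more arrays, 708 of them without a gene name. Each of 8386 genes was represented by its brightest passing probe on average. One limma fit of 4 group means over 16 arrays, with 12 residual degrees of freedom and two-sided moderated tests, gave Benjamini-Hochberg adjusted p-values, and a value under 0.05 passed. The fit was tested on simulated data. Array number, 4 mice a group, limits the precision, with a median SE of 0.162 per log2 change.

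The members and gene lists were chosen with earlier results of these data known. Named genes were all member probes, 13 genes of the pathways whatever their values, and up to 4 passing genes per list and comparison by smallest p. The values of single mice set beside each other were chosen after they were seen. Replicate numbers gave no clear sign of pairing. Same-numbered deviations correlated at -0.367 to 0.404, over 0.1 in 7 of 24 pairs. Their median was -0.0065, against -0.0155 for pairs with different numbers.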

Additional observations from a re-analysis of the deposited data

Results flagged for a closer look

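The dim Lifr probe ILMN_1242960 had 1 DADS mouse apart from the rest. Replicate 2 had a raw signal of 108.3, against 80.6 as the lowest and 81.55 as the median of the DADS group, and its gap to the nearest mouse was 0.843 of the group's range, above Dixon's critical value. The probe was detected on none of the 16 arrays. Of 28 groups of 4 tested over the 7 probes, this was the 1 that stood out, and chance alone flags about 1 in 20 groups.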

How the results depend on the processing

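Of 29 other settings, 16 left out 1 array and 13 changed the processing. Cyp17a1 passed in all 29 for garlic oil and for DADS against alcohol and against control, and Cux2 passed in all 28 that kept its probe for DADS against both. The brightest Cux2 probe passed the detection filter through DADS and garlic oil arrays alone, so these settings share a choice that those groups shaped. Where detection on all 16 arrays was required, Cux2 and Lifr were not tested, and the members passing for DADS fell to 1 against alcohol and to 1 against control. For garlic oil against DADS the count became 1 with median scaling (with or without background correction), with array weights and with the replicate block. Leaving out 1 array gave 0 to 1 there (1 without garlic oil replicate 1), 1 to 2 for garlic oil against control (2 without garlic oil replicate 3) and 2 to 3 for DADS against control (3 without control replicate 3). Sign changes concerned differences near 0 that passed in no setting, and their cause was not tested. Lifr in DADS against alcohol was 0.0018 with median scaling of uncorrected signals and 0.0013 with array weights, and -0.1188 to 0.0989 without 1 array. Lifr in garlic oil against alcohol was -0.0337 to 0.183 without 1 array, and Cyp17a1 in garlic oil against DADS was -0.0328 to 0.6003. Cux2 in alcohol against control was -0.0032 as the mean of its probes and -0.1096 with both groups fitted alone. The mean of probes also gave the smallest Cux2 change in DADS, 1.32 against alcohol and 1.32 against control. Of 57 calls of named list genes, 33 held in every setting, 24 were lost in some and 0 reversed. Most of these genes were named for the smallest p of their list and comparison. The other list calls were followed only through the counts per list, so these shares do not describe all list calls. Male-biased genes falling in DADS against alcohol numbered 3 to 13 over the processing settings and 5 to 16 without 1 array. Over all genes, the processing settings called 26 to 254 for garlic oil and 61 to 1603 for DADS against alcohol, 220 to 669 for alcohol against control, 39 to 452 for garlic oil against DADS, and 1263 to 2110 for garlic oil and 1136 to 2532 for DADS against control. Without 1 array these were 44 to 168, 98 to 291, 132 to 377, 72 to 177, 907 to 1605 and 885 to 1423, in the same order. No other member call changed with the replicate block. Dim probes limit what Lifr and Cux2 can show.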

Other observations

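The genes whose level ran most like each member were read over 16 arrays among 8385 genes, as a description without a test, since the arrays share groups and chips. For Cyp17a1 they were Mafk, a small Maf transcription factor (Pearson r 0.878), Abcc3, an efflux pump for conjugates (0.859), and Btd, the biotin-recycling enzyme (0.856). Abcc3 averaged 12.02 in garlic oil, 11.88 in DADS, 11.40 in alcohol and 11.20 in control livers on the log2 scale. For Cux2 they were Zfand2a (0.906), Dnaja2, a cochaperone (0.892), and Iqgap2, a scaffold protein (0.891). Zfand2a averaged 9.12 in garlic oil, 9.56 in DADS, 9.02 in alcohol and 8.89 in control livers. For Lifr they were Elmod3 (0.903), Cabp4 (0.837) and Tent4a (0.835), each with its highest mean in control livers. Tent4a, a poly(A) polymerase, averaged 8.48, 8.59, 8.58 and 8.92 in garlic oil, DADS, alcohol and control livers.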
